A study of Mus musculus with 17 samples.

Results

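The 9 genes described here encode the core of the TGF-beta signalling pathway: the ligands Tgfb1, Tgfb2 and Tgfb3, the receptors Tgfbr1, Tgfbr2 and Tgfbr3, the signal transducer Smad3, and the pathway inhibitors Smad7 and Skil. They were listed by name as the core of the pathway, with earlier results of these data known, so their counts do not come from a blind choice. Each symbol matched 1 of the 35896 Ensembl gene IDs in the files. All 9 passed a filter on low counts that left 13923 genes for testing. RNA sequencing gave their levels in 17 libraries. The libraries came from mouse pancreatic stellate cells, the mesenchymal cells of the pancreas that can become matrix-producing fibroblasts. The cells were 2 lines, PSC4 and PSC5, labelled wild type (WT) and of the C57BL/6J strain, at passages 23 to 28. All were embedded in Matrigel, a basement membrane gel, and collected on day 4. The groups were control medium (5 libraries), control medium with TGF-beta at 20 ng/mL (4), tumour organoid conditioned medium (CM, 4) and CM with 300 nM neratinib, an inhibitor of ERBB receptor kinases (4). Which TGF-beta isoform was added, and the age and sex of the animals, are not given in the sources used here. Libraries of 1 line are cultures at successive passages and are not labelled as separate animals, so p-values measure the spread between these cultures. In such bulk samples, fewer cells of a type and less RNA per cell cannot be told apart.

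TGF-beta ligands are secreted in latent complexes and, once released, bind the type II receptor (Tgfbr2), which phosphorylates the type I receptor (Tgfbr1). Betaglycan (Tgfbr3) is a co-receptor that presents ligand. The type I receptor phosphorylates SMAD proteins, Smad3 among them, which enter the nucleus with SMAD4 and switch on matrix genes. The pathway also induces its own brakes: SMAD7 blocks the activated type I receptor, and SnoN, the protein of Skil, represses SMAD complexes on DNA. In the pancreas TGF-beta is a classical activator of stellate cells.

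Library totals ran from 22168953 to 29421447 counts. All 10 fibroblast or stellate markers had a mean of at least 1 CPM in each group, the lowest being Des, the stellate cell filament desmin (1.51 to 2.48 CPM). CPM here means counts scaled to a common library total after edgeR's TMM correction. The summed CPM of 10 epithelial markers was 15.8 to 23.6 in control medium, 14.8 to 20.4 with TGF-beta, 20.3 to 178 in CM and 9.75 to 318 in CM with neratinib. It was high in the 4 libraries whose titles carry the medium code T6 (143 to 318) and lower in the 4 coded T8 (9.75 to 51.3), and no epithelial marker was at 0 in all libraries. Of 8 leukocyte markers Adgre1 was at 0 in every library and Ptprc was under 0.1 CPM, while the list's sum was 8.42 to 22.3 CPM without CM and 37.9 to 123 CPM in both CM groups, carried by Cd14 and Cd74. The sum of 6 endothelial markers was 3.99 to 8.22 CPM in control medium, 7.61 to 23.1 with TGF-beta, 2.42 to 5.05 in CM and 3.63 to 32.0 with neratinib. Vwf carried the rise (means of 1.77, 11.4, 1.80 and 11.04 CPM in that order), while Pecam1 and Cdh5 stayed below 1 CPM. The part of these markers in the results was not tested. The 3 libraries labelled PSC4 replicate 1 stood apart from their line. Their residuals from the group means correlated at a median r of -0.309 with the other PSC4 libraries (14 pairs) and 0.195 with PSC5 libraries (18 pairs). Counts of the 9 genes called against control are given with and without them.

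RefSeq (GRCm38.p6) upstream windows, each holding the 250 bases before a transcription start, were used for 5 of the 9 genes. Smad7 was left out of this search. Those of Tgfb1 and Tgfb2 are printed because both ligands rose with TGF-beta while their CM values lay on opposite sides of control, and that of Smad3 because it fell with TGF-beta. Each is written 5′ to 3′ on the gene's own strand, with the SMAD box CAGAC (searched on both strands) in capitals. The windows lie at chr7:25686752-25687001 (plus strand), chr1:186705990-186706239 (minus strand) and chr9:63757995-63758244 (minus strand).
Tgfb1: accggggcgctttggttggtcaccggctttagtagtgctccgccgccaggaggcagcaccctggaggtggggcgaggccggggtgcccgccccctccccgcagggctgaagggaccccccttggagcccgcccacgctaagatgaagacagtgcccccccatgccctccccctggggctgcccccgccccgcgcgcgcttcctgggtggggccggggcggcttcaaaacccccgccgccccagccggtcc
Tgfb2: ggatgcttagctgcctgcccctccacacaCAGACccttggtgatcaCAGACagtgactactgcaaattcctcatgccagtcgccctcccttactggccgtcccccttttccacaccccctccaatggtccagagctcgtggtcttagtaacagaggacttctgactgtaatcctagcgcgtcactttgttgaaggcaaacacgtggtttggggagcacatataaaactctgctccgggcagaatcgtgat
Smad3: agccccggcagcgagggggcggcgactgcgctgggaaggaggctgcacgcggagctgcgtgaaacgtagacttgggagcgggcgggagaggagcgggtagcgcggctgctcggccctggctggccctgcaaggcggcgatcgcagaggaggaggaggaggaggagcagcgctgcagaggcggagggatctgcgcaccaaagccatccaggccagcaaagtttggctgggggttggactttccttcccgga
The Tgfb2 window held 2 copies of CAGAC, 221 and 204 bases before the start, while the windows of Tgfb1 and Smad3 held none. Among the windows not printed, Tgfbr2 had 1 copy, 160 bases before the start, and Tgfbr1 had 1 in the second of its 2 windows. CAGAC occurred in 42.2% of all 32851 upstream windows of this length, so its presence is common. The AP-1 motif TGANTCA, also searched on both strands and without overlap with CAGAC, was in none of the 6 windows and in 6.75% of all. A match is a description of letters and not of a bound site.

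In each list of values below, libraries follow the order PSC4 then PSC5, by replicate number within the line: PSC4 1, 2, 3 and PSC5 1, 2 for control medium, PSC4 2, 3 and PSC5 1, 2 for TGF-beta, and PSC4 1, 2 and PSC5 1, 2 for both CM groups. All fold changes are log2 differences of CPM from edgeR's quasi-likelihood test over 13923 genes, with the group and the line as terms, and "called" means a Benjamini-Hochberg adjusted p under 0.05. TGF-beta called 7 of the 9 genes (5 higher, 2 lower) against a background of 40.2% of all genes tested, and their median log2 fold change was 0.75 against -0.02 for all genes. CM called 4 (3 higher, 1 lower) against a background of 14.2%, and CM with neratinib called 5 (3 higher, 2 lower) against a background of 43.1%. That last share lies near its background and is no result about these genes as a set. Control libraries are shared by all 3 of these comparisons. With the line and replicate number as a block the counts of called genes were again 7, 4 and 5, against backgrounds of 50.9%, 23.3% and 52.4%. The CPM of 7, 5 and 5 of the 9 genes did not overlap control, against backgrounds of 32.7%, 19.8% and 29.4% of all genes.

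**Figure D1:**
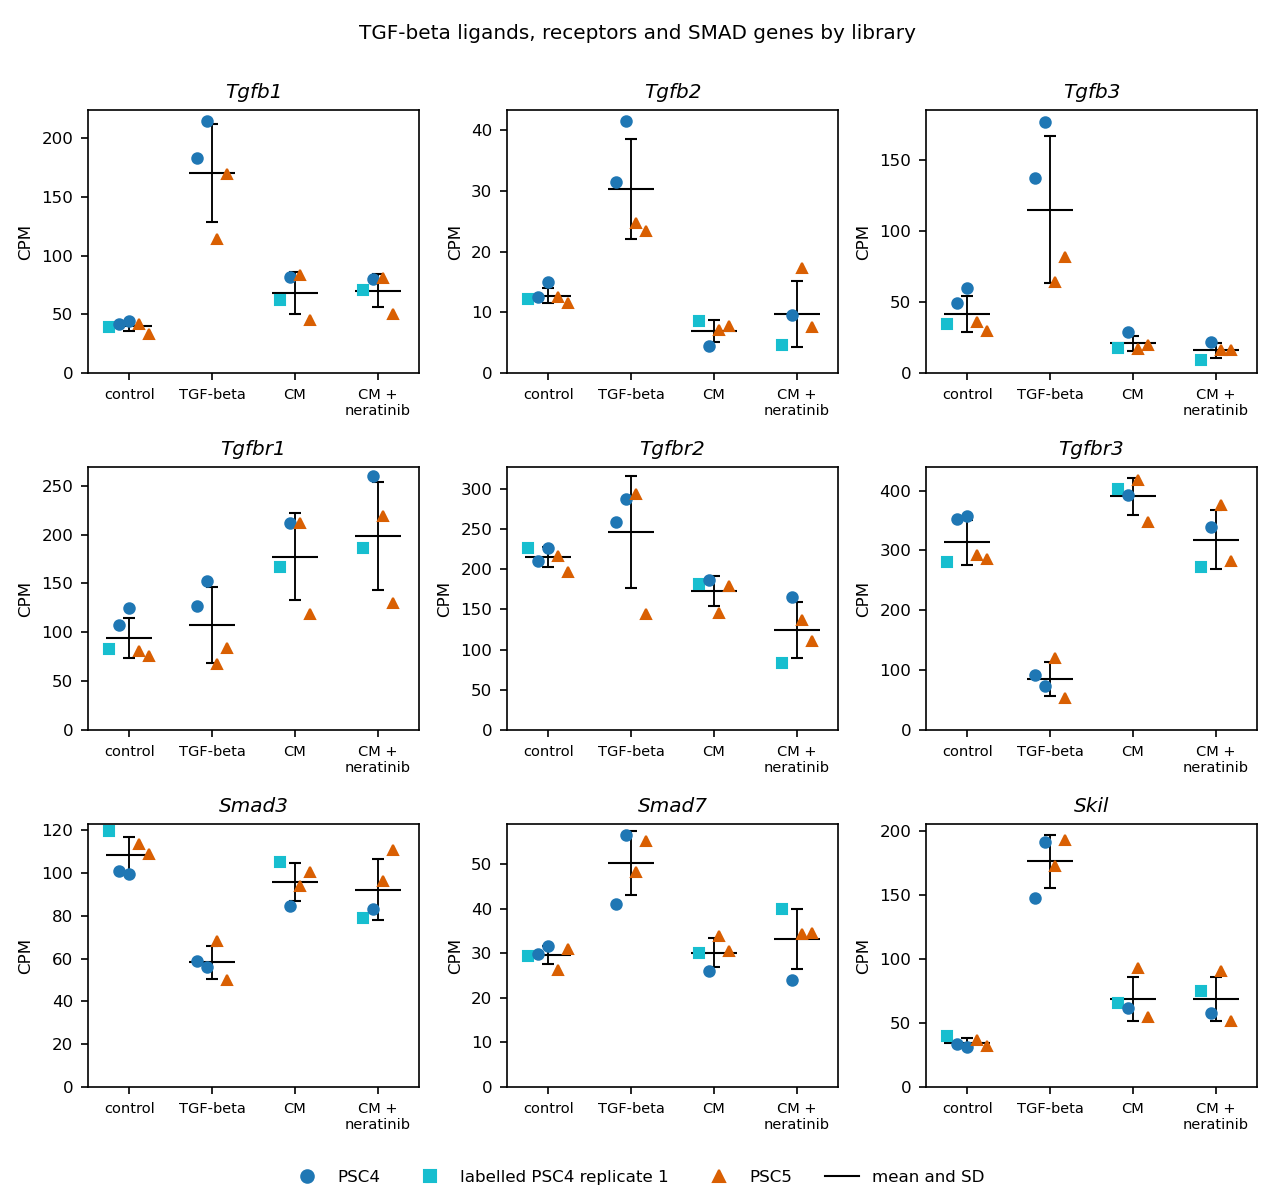
CPM of each of the 9 genes (1 panel each, linear axis from 0) in all 17 libraries, by medium, with circles for PSC4, squares for libraries labelled PSC4 replicate 1, triangles for PSC5, and lines for the group mean and SD. Skil in the 4 TGF-beta libraries sits between 148 and 193 CPM, above every other library, and Tgfbr3 in the same libraries lies below all others.

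Tgfb1 (chr7:25687002-25705077, plus strand, GRCm38) encodes the most widely expressed of the ligands. It was at 39.0, 41.6, 44.3, 41.9 and 33.5 CPM in control medium and at 183, 215, 115 and 170.0 CPM with TGF-beta. In CM it was at 62.7, 81.8, 83.7 and 45.0 CPM, and with neratinib added at 70.4, 80.0, 80.9 and 49.9 CPM. All 12 treated libraries were above all 5 control libraries, and PSC5 replicate 2 was the lowest in both CM groups. TGF-beta raised Tgfb1 by 2.10 ± 0.19 (log2, SE, adjusted p = 8.15e-07), 4.29-fold, in 4 of 4 libraries. CM raised it by 0.79 ± 0.18 (adjusted p = 0.0117), and CM with neratinib by 0.83 ± 0.18 (adjusted p = 0.00232). Without CM PSC5 replicate 1 the CM value was 0.61 with an adjusted p of 0.0573, the only 1 of 19 alternatives that ended the call.

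Tgfb2 (chr1:186622792-186705989, minus strand), the ligand that depends most on betaglycan for receptor binding, was the least abundant of the 3. Control libraries held 12.2, 12.5, 14.9, 12.6 and 11.5 CPM, and TGF-beta libraries 31.5, 41.5, 24.8 and 23.4 CPM. It was at 8.60, 4.45, 7.15 and 7.78 CPM in CM and at 4.55, 9.53, 17.3 and 7.61 CPM in CM with neratinib. The TGF-beta libraries were all above and the CM libraries all below control, while with neratinib the PSC5 replicate 1 library exceeded every control library. Tgfb2 rose by 1.25 ± 0.29 with TGF-beta (adjusted p = 0.00346, 2.37-fold). In CM its log2 difference from control was -0.87 ± 0.31 with an adjusted p of 0.0705, which missed the threshold although the groups did not overlap. DESeq2 called that difference (adjusted p = 0.0294), as did edgeR without the 3 libraries labelled PSC4 replicate 1 (-0.98, adjusted p = 0.0411) and with only the 2 groups in the fit (adjusted p = 0.0128). For CM with neratinib the difference was -0.40 (adjusted p = 0.307), and without the PSC5 replicate 1 library -0.82 (adjusted p = 0.0177).

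Tgfb3 (chr12:86056745-86079041, minus strand), a ligand known from palate and scar biology, was the only ligand called in opposite directions in TGF-beta and CM. It stood at 34.4, 49.4, 60.2, 36.1 and 29.4 CPM in control medium and 138, 177, 63.9 and 82.1 CPM with TGF-beta. In CM it stood at 17.9, 28.7, 16.8 and 20.0 CPM, and with neratinib at 9.19, 22.1, 16.5 and 15.9 CPM. No treated group overlapped control, and PSC4 replicates 2 and 3 were the highest libraries within control and TGF-beta. Tgfb3 rose by 1.46 ± 0.26 with TGF-beta (adjusted p = 0.000389, 2.76-fold). It fell by 0.94 in CM (SE 0.27, adjusted p = 0.03) and by 1.30 in CM with neratinib (SE 0.27, adjusted p = 0.00171, 2.46-fold). The CM call was lost when any 1 of 6 libraries was left out: CM PSC4 replicates 1 and 2, CM PSC5 replicate 1, control PSC4 replicates 2 and 3, or control PSC5 replicate 1 (log2 differences -1.04 to -0.79, adjusted p 0.0516 to 0.0963). Ttll5 spans Tgfb3 on the other strand without sharing exon bases, and its mean was 24.2 CPM in control medium and 51.4 CPM with TGF-beta. Whether the counting used strand is not given in the sources used here, and the part of Ttll5 in the Tgfb3 values was not tested. Exons of Tgfb2, Tgfb3 and Tgfbr3 also share 124 to 297 bases with predicted Gm genes that are not among the IDs in the files, so reads from those could be counted with these genes.

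The balance between ligands differed among media. Per kilobase of merged exons, Tgfb1 made up 35.9% ± 4.07 (SD, n = 5) of the summed ligand CPM in control medium, 47.4% ± 5.65 (n = 4) with TGF-beta, 64.1% ± 7.21 (n = 4) in CM and 68.8% ± 7.72 (n = 4) with neratinib. Tgfb3 made up 54.2% ± 5.14, 45.2% ± 5.96, 29.8% ± 6.51 and 23.2% ± 6.38 in the same order, and Tgfb2 10.0% ± 1.21, 7.37% ± 1.32, 6.12% ± 2.42 and 8.03% ± 3.37. Tgfb3 thus held the largest share in every control library (50.1% to 61.0%) and Tgfb1 in every library of both CM groups (55.2% to 79.9%). The size of these shares depends on the length used: with the median coding transcript length Tgfb1 held 55.1% in control medium and 79.4% in CM, so that it led in control medium as well. The shares are a description and were not tested.

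**Figure D2:**
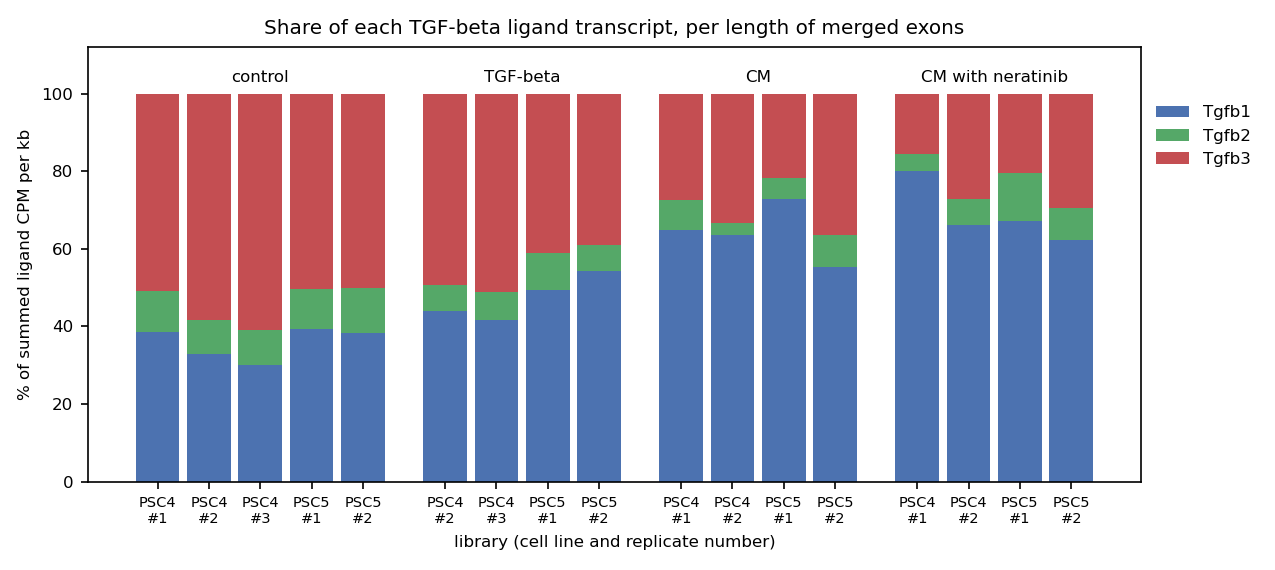
Share of Tgfb1, Tgfb2 and Tgfb3 in the summed ligand CPM per kilobase of merged exons (percent), 1 stacked bar per library, grouped by medium. Tgfb3 takes 50.1% to 61.0% of each control bar, and Tgfb1 takes 55.2% to 79.9% of each bar of both CM groups.

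Tgfbr1 (chr4:47353222-47414931, plus strand), the type I receptor kinase, was called higher in both CM groups. Control libraries held 83.3, 107, 125, 80.8 and 76.1 CPM and TGF-beta libraries 127, 152, 68.0 and 83.6 CPM. It was at 167, 212, 212 and 119 CPM in CM, and at 186, 260, 219 and 130 CPM with neratinib. Control and TGF-beta values overlapped, and within both the PSC4 libraries of replicates 2 and 3 were high. In CM only the PSC5 replicate 2 library lay within the control range, and no library with neratinib did. Tgfbr1 rose by 0.97 ± 0.20 in CM (adjusted p = 0.00665, 1.96-fold) and by 1.12 ± 0.20 in CM with neratinib (adjusted p = 0.000606). With TGF-beta the log2 difference was 0.20 (95% interval -0.23 to 0.63, adjusted p = 0.467).

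Tgfbr2 (chr9:116084293-116175360, minus strand), the type II receptor that binds ligand first, was called in CM with neratinib and not in TGF-beta or CM. It was at 226, 210.1, 227, 216 and 196 CPM in control medium and at 259, 287, 293 and 144 CPM with TGF-beta. CM libraries held 181, 186, 145 and 179 CPM and those with neratinib 83.7, 165, 137 and 110.3 CPM. Both CM groups lay below all control libraries, and the TGF-beta group held the 3 highest libraries and 1, PSC5 replicate 2, below control. Tgfbr2 fell by 0.78 in CM with neratinib (SE 0.19, adjusted p = 0.0053, 1.71-fold). The log2 difference from control was -0.30 (95% interval -0.71 to 0.11, adjusted p = 0.325) in CM and 0.20 (95% interval -0.20 to 0.61, adjusted p = 0.43) with TGF-beta. A fit to control and CM libraries alone called the CM difference (-0.31, adjusted p = 0.0176).

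Tgfbr3 (chr5:107106570-107289629, minus strand), the betaglycan co-receptor, was strongly lower with TGF-beta. Its values were 281, 352, 357, 293 and 286 CPM in control medium and 92.3, 73.9, 121 and 52.7 CPM with TGF-beta. They were 403, 393, 418 and 347 CPM in CM and 273, 340, 376 and 283 CPM with neratinib. The TGF-beta libraries were below all others, the lowest control library being more than 2 times the highest of them. Tgfbr3 fell by 1.88 with TGF-beta (SE 0.19, adjusted p = 3.54e-06, 3.69-fold). The log2 difference was 0.32 (95% interval -0.07 to 0.70, adjusted p = 0.269) in CM and 0.02 (95% interval -0.36 to 0.41, adjusted p = 0.93) with neratinib. As with Tgfbr2, a fit to control and CM libraries alone called the CM difference (0.33, adjusted p = 0.0314).

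Smad3 (chr9:63646767-63757994, minus strand), the transducer, was lower with TGF-beta. It was at 119, 101, 99.5, 114 and 109 CPM in control medium and 58.8, 56.2, 68.3 and 49.9 CPM with TGF-beta. In CM it was at 105, 84.6, 94.1 and 100.5 CPM, and with neratinib at 79.2, 83.2, 96.2 and 111 CPM. The TGF-beta libraries were below all others, and both CM groups overlapped control. Smad3 fell by 0.91 with TGF-beta (SE 0.10, adjusted p = 8.96e-06, 1.88-fold). Its log2 difference was -0.19 in CM (95% interval -0.40 to 0.03, adjusted p = 0.239) and -0.25 with neratinib (95% interval -0.47 to -0.03, adjusted p = 0.0574). The latter was called with upper-quartile factors (-0.31, adjusted p = 0.0235), with the libraries labelled PSC4 replicate 1 counted as PSC5 (-0.26, adjusted p = 0.0331) and without the neratinib PSC5 replicate 2 library (-0.33, adjusted p = 0.023).

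Smad7 (chr18:75367529-75395935, plus strand), the inhibitory SMAD, was higher with TGF-beta. Its control values were 29.3, 29.8, 31.7, 26.3 and 30.9 CPM, and its TGF-beta values 41.1, 56.5, 48.2 and 55.1 CPM. It was at 30.1, 26.1, 33.8 and 30.6 CPM in CM, and at 39.9, 23.97, 34.4 and 34.6 CPM with neratinib. Only the TGF-beta group was clear of control. Smad7 rose by 0.75 ± 0.13 with TGF-beta (adjusted p = 0.000311, 1.69-fold). The log2 difference was 0.02 (95% interval -0.26 to 0.29, adjusted p = 0.947) in CM and 0.16 (95% interval -0.12 to 0.44, adjusted p = 0.343) with neratinib. Without the neratinib PSC4 replicate 2 library, the lowest of its group, the latter was 0.29 (adjusted p = 0.0491).

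Skil (chr3:31095058-31122577, plus strand), whose protein SnoN represses SMAD complexes, had the largest estimated change of the 9 genes with TGF-beta. Control libraries held 39.4, 33.3, 31.5, 37.0 and 32.3 CPM and TGF-beta libraries 148, 191, 173 and 193 CPM. It was at 65.7, 61.5, 93.0 and 54.3 CPM in CM and at 74.7, 57.7, 90.3 and 51.7 CPM with neratinib. Every treated library was above every control library, with the TGF-beta libraries above both CM groups. Skil rose by 2.33 ± 0.17 with TGF-beta (adjusted p = 1.21e-07, 5.03-fold), by 0.97 ± 0.17 in CM (adjusted p = 0.00208, 1.96-fold) and by 0.97 ± 0.17 with neratinib (adjusted p = 0.000443). The 2 inhibitors thus differed in CM, where Skil was called and Smad7 was not. The difference between the responses of these genes was not tested.

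**Figure D3:**
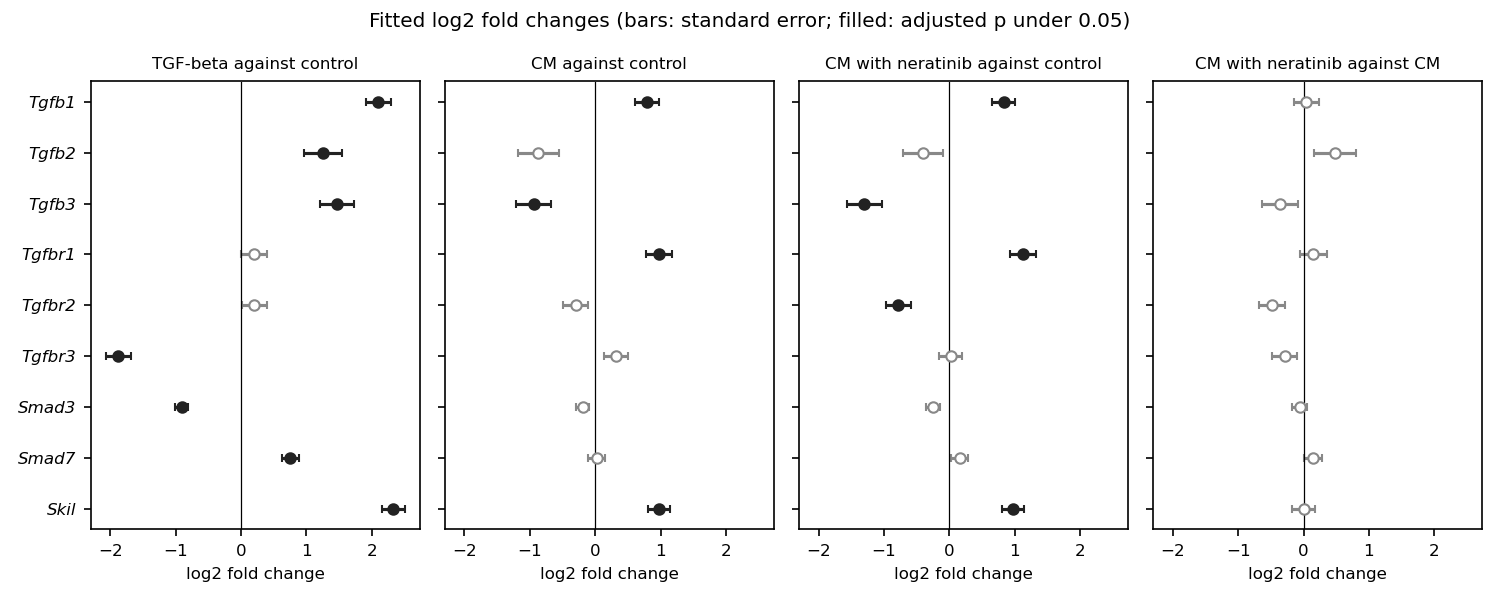
Fitted log2 fold change of each of the 9 genes in 4 comparisons, with bars for the standard error and filled symbols for an adjusted p under 0.05 in edgeR. Skil, at 2.33, lies farthest to the right with TGF-beta, and no gene is filled for CM with neratinib against CM.

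The epithelial marker sums above moved with CM, and their part in the CM results was not tested. The CM library of PSC4 replicate 1 had an epithelial sum of 20.3 CPM, within the control range, and held Tgfb1 at 62.7, Tgfbr1 at 167, Skil at 65.7 and Tgfb3 at 17.9 CPM, each beyond all 5 control libraries in the direction of its call. The neratinib library of PSC4 replicate 1 had a sum of 9.75 CPM, below control, with Tgfbr2 at 83.7 CPM, the lowest of all libraries. Muc1 and Krt19 carried the control sums (means of 11.7 and 5.17 CPM). These single libraries describe values and do not test the part of epithelial RNA. Without the 3 libraries labelled PSC4 replicate 1, the counts of called genes against control were 7 with TGF-beta, 5 in CM (Tgfb2 added) and 5 in CM with neratinib, against backgrounds of 49.4%, 18.1% and 40.3% of the genes tested in that fit.

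Neratinib was compared with CM alone to ask which genes ERBB inhibition shifts in this medium. None of the 9 genes was called in edgeR (0 of 9), against a background of 20.5% (10.8% higher and 9.63% lower). Only 1, Tgfbr2, was at an unadjusted p under 0.05, as were 4777 of the 13923 genes tested. DESeq2 gave the same counts of members, with 3551 of all genes called and 5127 at an unadjusted p under 0.05. With the block the count was again 0 against a background of 32.8%, and 0 of 9 genes were clear of overlap against 18.7% of all. Without the 3 libraries labelled PSC4 replicate 1 the count of called members was 0 as well, with 1989 of all 14049 genes called. Tgfb2 was then at an unadjusted p under 0.05, as were 4262 of all genes. In all 4 pairs of libraries of a line and number, Tgfb3, Tgfbr2 and Tgfbr3 were lower and Tgfbr1 was higher with neratinib. How many of all genes had 1 sign in all 4 pairs was not counted, so this is a description and no result about these genes. The log2 difference of Tgfbr2 was -0.48 (95% interval -0.91 to -0.05, adjusted p = 0.108). The intervals were -0.37 to 0.45 for Tgfb1, -0.21 to 1.16 for Tgfb2, -0.96 to 0.24 for Tgfb3 and -0.30 to 0.60 for Tgfbr1. They were -0.70 to 0.11 for Tgfbr3, -0.29 to 0.16 for Smad3, -0.15 to 0.43 for Smad7 and -0.37 to 0.38 for Skil. These intervals leave room for changes of over 1.5 times in some ligands and receptors, and they do not show that the groups were alike.

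CM and added TGF-beta were also compared directly. CM called 8 of the 9 genes against TGF-beta, with 3 higher and 5 lower, over a background of 35.3% (17.8% and 17.5%), and 7 of 9 did not overlap between the groups against a background of 31.5%. Tgfb3 was lower in CM than with TGF-beta by a log2 difference of -2.40 ± 0.29 (adjusted p = 1.57e-05), Tgfb2 by -2.12 ± 0.33 (adjusted p = 0.000151), Skil by -1.36 ± 0.18 (adjusted p = 3.54e-05), Tgfb1 by -1.31 ± 0.19 (adjusted p = 0.000115) and Smad7 by -0.74 ± 0.14 (adjusted p = 0.000681). Higher in CM were Tgfbr3 by 2.20 ± 0.20 (adjusted p = 1.24e-06), Tgfbr1 by 0.77 ± 0.21 (adjusted p = 0.0114) and Smad3 by 0.72 ± 0.11 (adjusted p = 0.000112). With the block the counts were 8 of 9 for CM and 9 of 9 for CM with neratinib, against backgrounds of 43.4% and 50.4%. Tgfbr2 was not called in CM (-0.50, adjusted p = 0.0642), but was without the TGF-beta PSC5 replicate 2 library (-0.69, adjusted p = 0.00619) and by DESeq2 (adjusted p = 0.0405). Without the line term Tgfbr1 was at 0.72 with an adjusted p of 0.051. Against TGF-beta, CM with neratinib called all 9 genes (3 higher, 6 lower) over a background of 44.0%, with 7 of 9 free of overlap against 30.0% of all genes, and Tgfbr2 among the lower (-0.98, adjusted p = 0.00127).

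The group means ordered the media differently from gene to gene. For Tgfb1, Tgfb2, Tgfb3, Tgfbr2, Smad7 and Skil the TGF-beta mean was the highest, though for Tgfbr2 none of the neighbouring means in the order was called apart. For Tgfbr1 both CM groups were highest and neither CM and CM with neratinib nor TGF-beta and control were called apart. For Tgfbr3 and Smad3 the TGF-beta mean was the lowest, and the other media were not called apart.

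The difference in response between the lines was tested as an interaction, and no member was called: 0 of 9 in edgeR for TGF-beta, CM or added neratinib, with 0 at an unadjusted p under 0.05, and the same 0 in DESeq2. Over all genes edgeR called 0 in each, with 601, 43 and 237 at an unadjusted p under 0.05, and DESeq2 called 19, 0 and 1. Without the 3 libraries labelled PSC4 replicate 1 edgeR again called 0 of 9 members, with 0 at an unadjusted p under 0.05, and 2, 0 and 0 of all genes. Within lines the TGF-beta difference of mean log2 CPM was 2.25 in PSC4 and 1.90 in PSC5 for Tgfb1, 1.74 and 1.15 for Tgfb3, -1.99 and -1.86 for Tgfbr3, and 2.28 and 2.40 for Skil. In CM it was 0.78 and 0.71 for Tgfb1, -1.05 and -0.83 for Tgfb3, 0.86 and 1.01 for Tgfbr1, and 0.88 and 1.04 for Skil. For these genes the direction was the same in both lines.

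The titles of the 8 CM libraries carry the codes T6 (all number 2) and T8 (all number 1), so within them the code, the replicate number and the passage cannot be told apart. The fit for the code held the line and number as a block, in which control and TGF-beta libraries set the part of the number. Its T6 minus T8 values are therefore not plain differences between CM libraries. No member differed between T6 and T8 in edgeR (0 of 9 called, 0 of all genes), while 3 were at an unadjusted p under 0.05: Tgfbr1 (T6 minus T8 -0.51), Skil (-0.39) and Smad7 (-0.33). Of all 13923 genes, 906 were at such a p. DESeq2 called 0 members and 60 of all genes. It put Tgfbr2 as a further member at an unadjusted p under 0.05, with 1036 of all genes there. Without the 3 libraries labelled PSC4 replicate 1 the T6 minus T8 differences were -0.70 for Tgfbr1, -0.61 for Skil and -0.35 for Smad7, and Tgfb1 (-0.62) was also at an unadjusted p under 0.05. In that fit 1341 of all 14049 genes were at an unadjusted p under 0.05. None of these 4 members was called (adjusted p 0.314 to 0.509), and 5 of all genes were.

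Levels per kilobase of merged exons let the genes be compared with each other in control medium. Tgfbr3 was the most abundant at 48.0 ± 5.74 CPM per kilobase (SD, n = 5), followed by Tgfbr2 at 26.3 ± 1.53, Smad3 at 19.6 ± 1.53, Tgfbr1 at 14.4 ± 3.16 and Tgfb3 at 12.4 ± 3.73. Below these were Tgfb1 at 7.95 ± 0.82, Smad7 at 6.54 ± 0.46, Skil at 3.58 ± 0.35 and Tgfb2 at 2.20 ± 0.22. Neighbours in this order differed by more than the larger of their SDs, except for Tgfbr1 and Tgfb3. The order depends on the length. With the median length of coding transcripts 6 of the 9 ranks moved. Smad3 (605 bases) led at 179 CPM per kilobase before Tgfbr3 at 92.7, and Tgfbr1 at 40.2 passed Tgfbr2 at 37.2. Smad7 rose to rank 5 while Tgfb3 dropped to rank 7. The 605 bases are the median of 4 annotated coding transcripts, against 5542 bases of merged exons. The first rank of Smad3 therefore rests on a short length. With TGF-beta, Tgfbr3 was at 13.0 ± 4.40 and Tgfb3 at 34.1 ± 15.3 CPM per kilobase.

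The genes whose log2 CPM varied most like each member over the 17 libraries were found among 10229 genes, as Pearson's r and as a description, since libraries share media and lines. Tgfbr3 was followed most closely by Slit3 (r = 0.991) and C1ra (0.986), Smad3 by Csf1 (0.981) and Crim1 (0.971), Tgfb3 by Jam2 and Ankrd13a (both 0.979), and Skil by Cdh10 (0.978). For Tgfb1 the closest genes were Foxp1 (0.971) and Olr1 (0.965), for Tgfbr1 Echs1 and Fam241a (both 0.952) and for Tgfbr2 St3gal5 (0.938) and AU022252 (0.934). The weakest best matches were those of Smad7, Spred2 (0.93) and Mex3c (0.922), and of Tgfb2, Frk (0.929) and Tmem65 (0.921).

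Other genes of the pathway were taken from lists chosen by name. Of 20 textbook SMAD3 targets TGF-beta called 12 higher and 1 lower (median log2 fold change 0.91 against -0.02 for all genes, with a background of 19.7% higher and 20.5% lower). Ccn2, a matricellular growth factor, rose by 2.33 ± 0.30 (adjusted p = 3.18e-05) and the collagen gene Col1a1 by 2.13 ± 0.29 (adjusted p = 4.40e-05). CM called 2 of the targets higher and 6 lower (median -0.44, background 7.05% and 7.14%). The 8 called became 3 without CM PSC4 replicate 2, 4 without CM PSC5 replicate 1 and 5 without CM PSC5 replicate 2. Among those lower were Acta2, which encodes smooth muscle actin and is a classical activation marker, at -1.21 ± 0.30 (adjusted p = 0.0153), and Adam12, a membrane protease, at -1.45 ± 0.33 (adjusted p = 0.0112). The Acta2 call was lost without CM PSC4 replicate 2 (-1.10, adjusted p = 0.0523) or CM PSC5 replicate 1 (-1.01, adjusted p = 0.0518). CM with neratinib called 2 higher and 11 lower (median -0.77, background 22.2% and 20.9%), led by Postn (-2.60 ± 0.91, adjusted p = 0.0323), which encodes the matrix protein periostin, and the actin-binding gene Tagln (-1.66 ± 0.30, adjusted p = 0.000649). The Postn call was lost without control PSC4 replicate 2 or 3, control PSC5 replicate 1 or neratinib PSC5 replicate 2 (log2 -2.64 to -2.28, adjusted p 0.0535 to 0.0657). Acta2, Tagln and Postn were not called with TGF-beta against control, in edgeR or in DESeq2. Against CM alone neratinib called 3 targets (15% against 20.5% of all genes), all lower, among them the collagen gene Col5a1 (-0.70 ± 0.21, adjusted p = 0.029) and the fibronectin gene Fn1 (-0.58 ± 0.18, adjusted p = 0.0366). Without the 3 libraries labelled PSC4 replicate 1 the count was 0 (Col5a1 -0.50, adjusted p = 0.0927, Fn1 -0.34, adjusted p = 0.215). The count was also 0 without CM PSC4 replicate 1, CM PSC5 replicate 2, neratinib PSC4 replicate 1 or neratinib PSC5 replicate 2, and with only the 2 groups fitted. Single libraries that ended these calls were those 4 and neratinib PSC4 replicate 2 for both genes (adjusted p 0.0509 to 0.119), and CM PSC5 replicate 1 for Fn1 (0.0611).

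Among 14 latency and activation genes, TGF-beta called 5 (35.7% against 40.2% of all genes), all higher, with Fbn1, a fibrillin that anchors latent complexes, at 1.89 ± 0.16 (adjusted p = 5.58e-07) and the latent binding protein Ltbp4 at 1.42 ± 0.22 (adjusted p = 0.000154). The count was 9 with the replicate block (50.9% of all genes) or without the libraries labelled PSC4 replicate 1 (49.4%). In DESeq2 it was 8, and the DESeq2 share of all genes is not given. CM called 3 higher and 1 lower (28.6% against 14.2%), with Lrrc32, which tethers latent ligand at the cell surface, at 1.26 ± 0.31 (adjusted p = 0.0158) and Ltbp4 at -0.82 ± 0.23 (adjusted p = 0.0296). The count of 4 was 1 without CM PSC4 replicate 2, CM PSC5 replicate 1, control PSC4 replicate 2 or either PSC5 control. It was 2 without control PSC4 replicate 1 or 3. With only the 2 groups fitted it was 7, and the share of all genes in that fit is not given. The Lrrc32 call was lost without CM PSC5 replicate 1 (1.14, adjusted p = 0.0594), and that of Ltbp4 without any 1 of 8 libraries (all 4 CM libraries, control PSC4 replicates 2 and 3, both PSC5 controls; adjusted p 0.0526 to 0.0963). CM with neratinib called 2 higher and 3 lower (35.7% against 43.1%), with the integrin gene Itgb8 at 1.97 ± 0.33 (adjusted p = 0.000395) and Thbs1, a latency-releasing thrombospondin, at -1.82 ± 0.34 (adjusted p = 0.000769). Against CM alone neratinib called Thbs1 (-1.23 ± 0.34, adjusted p = 0.0216) and Ltbp1 (-0.52 ± 0.16, adjusted p = 0.032), both lower (14.3% against 20.5%). Without neratinib PSC5 replicate 2 the Thbs1 value had an adjusted p of 0.0635. The Ltbp1 call was lost without any 1 of 5 libraries (CM PSC4 replicates 1 and 2, CM PSC5 replicate 2, neratinib PSC4 replicate 1 and neratinib PSC5 replicate 2, adjusted p 0.056 to 0.0791), and without the 3 libraries labelled PSC4 replicate 1 it was at -0.33 (adjusted p = 0.0992).

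Of 14 other inhibitors and modulators TGF-beta called 7 higher and 2 lower, CM called 2, both higher, and CM with neratinib called 6 higher and 1 lower. These are 64.3%, 14.3% and 50% of the list against 40.2%, 14.2% and 43.1% of all genes, so the CM share equals that of all genes. The CM count was 4 with the replicate block (background 23.3%) or without the libraries labelled PSC4 replicate 1 (background 18.1%). It was 1 where a single library left out ended the Pmepa1 call. The neratinib count was 12 with the block, against a background of 52.4%. Pmepa1, a membrane adaptor that sequesters receptor SMADs, rose by 3.41 ± 0.24 with TGF-beta (adjusted p = 9.20e-08). Its CM value was 0.75 ± 0.23 (adjusted p = 0.0416), a call that 7 of the single libraries left out ended (adjusted p 0.0522 to 0.152, CM PSC4 replicate 2, CM PSC5 replicate 1 and all 5 controls). Dcn, a proteoglycan that binds TGF-beta and is also a fibroblast marker, fell by 2.01 with TGF-beta (SE 0.43, adjusted p = 0.0018) and rose by 3.03 ± 0.41 in CM (adjusted p = 0.000407) and 3.10 ± 0.41 with neratinib (adjusted p = 6.45e-05). Against CM alone neratinib called 3 higher and 1 lower (28.6% against 20.5%, and 2 genes without CM PSC4 replicate 1), with the corepressor gene Tgif1 at 0.71 ± 0.11 (adjusted p = 0.000763) and its relative Tgif2 at -0.60 ± 0.15 (adjusted p = 0.0129).

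Of 8 other receptors and SMADs TGF-beta called 1 higher, the type I receptor gene Acvr1 (1.05 ± 0.11, adjusted p = 4.82e-06), and 1 lower, the co-receptor gene Eng (-0.48 ± 0.18, adjusted p = 0.0411). These 2 are 25% of the list against 40.2% of all genes. The count was 4 with the block (50.9% of all genes) or without the libraries labelled PSC4 replicate 1 (49.4%). In DESeq2 it was 4 as well, and the DESeq2 share of all genes is not given. The Eng call was lost without any 1 of 6 libraries (control PSC4 replicates 1, 2 and 3, control PSC5 replicate 1, TGF-beta PSC4 replicate 3 and TGF-beta PSC5 replicate 2, adjusted p 0.0604 to 0.132). CM called 0 of the 8 in edgeR, against 14.2% of all genes. Only 1, Eng, was at an unadjusted p under 0.05 (-0.50 ± 0.18, adjusted p = 0.0706), and DESeq2 called Eng. The count was 1 with the block (23.3% of all genes) or without the libraries labelled PSC4 replicate 1 (18.1%). With neratinib 3 were higher and 2 lower (62.5% against 43.1%), 3 in all without any 1 of 6 libraries (all neratinib libraries but PSC4 replicate 2, control PSC4 replicate 2 and both PSC5 controls), Eng at -0.84 ± 0.18 (adjusted p = 0.00195) and Zfyve9, the SARA anchor that presents SMADs to the receptor, at 0.48 ± 0.08 (adjusted p = 0.000488). Against CM alone only Zfyve9 was called, at 0.45 ± 0.09 (adjusted p = 0.00358), which is 12.5% of the list against 20.5% of all genes.

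**Figure D4:**
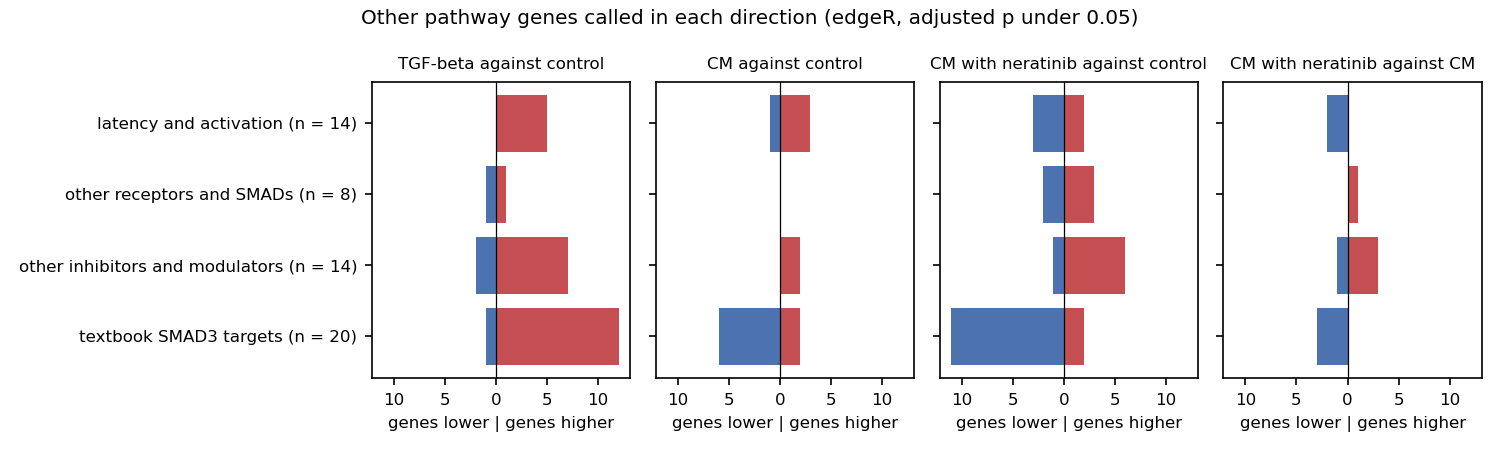
Number of genes called higher (right of 0) and lower (left of 0) in each of the 4 lists of other pathway genes, by comparison. Textbook SMAD3 targets give 12 higher and 1 lower with TGF-beta and 2 higher and 11 lower in CM with neratinib.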

How the data were processed

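The authors deposited 1 file of expected counts per library, made with Salmon 1.4.0, per the submitters' processing notes, which also name DESeq 2 and the mouse GRCm38 (mm10) build without stating a role. The annotation release and any read filter are not given in the sources used here. Of the values above 0, 74.8% were not whole, so all were rounded to whole counts. IDs were matched to GENCODE M21 gene models by ID, with 35437 of 35896 given a symbol. Counts were fitted with edgeR 4.0.16 (R 4.3.3) over all 17 libraries, with group and cell line as terms, TMM factors and the filterByExpr filter (10 counts, 15 in total), and p-values were adjusted by Benjamini-Hochberg over 13923 genes. Standard errors come from the quasi-likelihood F, and log2 CPM used for likeness had a prior count of 2. On simulated data for TGF-beta against control, the fit recovered 83% of log2 changes of 1 and 97% of changes of 2. Those changes were put only into genes above a floor of mean count. The simulated libraries had no line or passage effect, so recovery was not measured for low counts or for such effects. DESeq2 1.42.0, other scaling factors, no filter and leaving out each library were alternatives. DESeq2 tests of lines and medium codes used no independent filter.

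Replicate number within a line matches the passage in the labels, and all 22 pairs of libraries of the same line and number had residual correlations over 0.1 (lowest 0.12, median 0.299), so a fit with the line and number as a block was also made. The genes and lists were chosen with earlier results of these data known. Named genes of a list are the 2 called with the largest log2 change and a mean of at least 10 CPM in 1 group. 1 of the genes found by likeness is not reported here.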

Additional observations from a re-analysis of the deposited data

Results flagged for a closer look

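In 36 groups of 4 or 5 libraries (the 9 genes in 4 media) 1 library stood far from the others. Tgfbr2 in CM PSC5 replicate 1 was at 145.5 CPM, with the nearest CM library at 179.5 CPM. The gap was 0.843 of the group's range. Chance marks about 1 in 20 such groups.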

How the results depend on the processing

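Members called in CM against control numbered 7 with only the 2 groups fitted, against 4 in the fit with all groups, and 2 to 4 with 1 library left out, the lowest without CM PSC5 replicate 1. The share of all genes called in that 2-group fit is not given, so the 7 is no result about these genes as a set. The cause was not tested. Over all genes, CM against control gave 1976 called, 3240 with the replicate block (cell line and number), 2986 with the 3 PSC4 replicate 1 libraries counted as PSC5, and 801 to 1793 with 1 library left out. Neratinib against CM gave 2850, 4563 with the replicate block, 602 with the 2 groups only, and 1748 to 3685 with 1 library left out. The cause of these shifts was not tested. Single libraries that moved these counts most were, for CM, CM PSC5 replicate 1 (801 without it), control PSC5 replicates 1 (1204) and 2 (1219) and CM PSC4 replicate 2 (1269), and for neratinib against CM, neratinib PSC5 replicate 2 (1748) and CM PSC4 replicate 1 (1782). The block left the counts of called members at 7, 4, 5, 0, 8 and 9, and changed no call of a member. With upper-quartile factors the share of called genes that were higher was 41.3% rather than 49.0% with TGF-beta, 37.5% rather than 49.7% in CM and 41.1% rather than 51.4% in CM with neratinib.

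Values near 0, none called, changed sign. Smad7 in CM was at -0.03 (upper-quartile factors), -0.01 (PSC4 replicate 1 removed) and -0.005 (counted as PSC5), and -0.04 to 0.08 with a library left out. Tgfbr3 with neratinib was at -0.04 (upper-quartile) and -0.08 to 0.11 with a library left out. Neratinib against CM: Smad3 was at 0.05 (PSC4 replicate 1 removed) and with a library left out between -0.14 and 0.0068, Tgfb1 between -0.10 and 0.23 and Tgfbr1 between -0.02 and 0.38. Skil was at 0.0019, and at -0.01 (upper-quartile), -0.0051 (no filter), -0.0048 (block), -2.5e-05 (no line term), -0.06 (PSC4 replicate 1 removed), -0.0023 (counted as PSC5), -0.00043 (2 groups) and -0.15 to 0.18 with a library left out.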
